A study of Mus musculus with 12 samples.

Results

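The interleukin 1 family and the inflammatory caspases were followed as 10 genes, taken by symbol from the count tables: Il1a, Il1b, Il1rn, Il1r1, Il1r2, Il18, Il18bp, Casp1, Casp4 and Nlrp3. All 10 were present in every table and all 10 passed the filter on low counts. The tables list 33924 genes in one set of libraries and 22609 in the other. RNA came from whole lung of B6 mice aged 6 to 8 weeks, 14 to 16 h after exposure. Mice of the RNase III set were wild type and received extract of Dermatophagoides farinae (D.f.), a house dust mite, together with RNase III, which degrades double-stranded RNA (n = 2), D.f. extract alone (n = 2) or phosphate-buffered saline, PBS (n = 2). In the knockout set, TLR3MAVS double knockout mice received D.f. extract (n = 2), wild-type mice D.f. extract (n = 2), knockout mice PBS (n = 1) and wild-type mice PBS (n = 1). Neither set has a group given RNase III without extract. By its label the knockout lacks Tlr3, which senses double-stranded RNA in endosomes, and Mavs, through which RNA sensors of the cytosol signal.

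Interleukin 1 alpha and interleukin 1 beta signal through the receptor Il1r1. The antagonist Il1rn occupies that receptor without signalling, and the decoy receptor Il1r2 binds the ligands without passing on a signal. Interleukin 18 is a related cytokine that is held by the soluble inhibitor Il18bp. Interleukin 1 beta and interleukin 18 are made as precursors that Casp1 cuts after the sensor Nlrp3 has assembled an inflammasome, while Casp4 (caspase-11 of the mouse) responds to cytosolic bacterial lipopolysaccharide. These steps act on protein, so RNA levels describe the supply of components and not their processing or release.

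Several of the genes are neighbours. In NCBIM37 (mm9), Il1b lies at chr2:129190306-129196875 and Il1a at chr2:129125346-129135708, both on the minus strand and 54597 bases apart. Il1rn is on the plus strand of the same chromosome at chr2:24192373-24207014. The receptor genes Il1r2 (chr1:40141613-40182064) and Il1r1 (chr1:40281925-40373043) are 99860 bases apart, both on the plus strand. The caspase genes Casp1 (chr9:5298517-5307265) and Casp4 (chr9:5308828-5336783) are only 1562 bases apart, also on the plus strand, and Il18 is at chr9:50383378-50389942 on the plus strand. Il18bp lies at chr7:109163593-109166669 on the minus strand and Nlrp3 at chr11:59355070-59380458 on the plus strand. Exons of Il1a and Il1b overlap those of the antisense genes Gm14023 and Gm14047. The strand setting of the counting is not stated, so reads of each pair cannot be told apart. Gm14023 had 7 to 17 reads and Gm14047 0 to 28 reads per library.

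Promoter windows are shown for 3 members, 1 caspase, the antagonist and the decoy receptor, that hold a match to a motif and are described below. RefSeq (GRCm38.p6) gave 15 windows for the 10 genes, each of 300 bases, 250 before and 50 after a transcript start. Both strands were searched for GAAANNGAA, the core of the interferon-stimulated response element, for TTCNNNGAA, a STAT site core, and for GGGNNNTTC, the first bases of an NF-kB site. Capitals mark the matches. The windows shown are Casp4 at chr9:5308599-5308898, Il1rn at chr2:24345121-24345420 and Il1r2 at chr1:40085843-40086142, all on the plus strand and written 5′ to 3′.
Casp4: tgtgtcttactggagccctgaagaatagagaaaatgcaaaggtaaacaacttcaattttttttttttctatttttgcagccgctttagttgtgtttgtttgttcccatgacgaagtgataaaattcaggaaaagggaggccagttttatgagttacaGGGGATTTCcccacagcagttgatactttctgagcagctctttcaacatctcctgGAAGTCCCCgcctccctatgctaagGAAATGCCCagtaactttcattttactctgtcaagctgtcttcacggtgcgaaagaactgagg
Il1rn: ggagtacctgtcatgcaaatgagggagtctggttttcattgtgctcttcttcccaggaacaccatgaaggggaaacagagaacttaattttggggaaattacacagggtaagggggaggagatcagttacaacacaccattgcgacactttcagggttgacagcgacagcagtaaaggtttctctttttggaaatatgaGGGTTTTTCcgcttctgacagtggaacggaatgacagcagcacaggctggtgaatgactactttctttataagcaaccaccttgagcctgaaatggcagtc
Il1r2: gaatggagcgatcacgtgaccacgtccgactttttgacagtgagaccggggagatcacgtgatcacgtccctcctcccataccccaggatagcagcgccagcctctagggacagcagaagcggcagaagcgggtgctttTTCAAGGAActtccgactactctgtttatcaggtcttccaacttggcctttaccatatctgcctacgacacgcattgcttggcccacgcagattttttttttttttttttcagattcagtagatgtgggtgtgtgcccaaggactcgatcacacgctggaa
The Casp4 window holds 3 matches to GGGNNNTTC, which begin 93, 38 and 13 bases before the start. The Il1rn window holds 1, 51 bases before the start, and the Il1r2 window holds 1 match to TTCNNNGAA, 111 bases before the start. GGGNNNTTC was found in 7 of the 15 windows, belonging to 4 genes (Il1rn, Il1r1, Il18 and Casp4), and in 14.0% of all 32851 RefSeq promoter windows. TTCNNNGAA was found in 1 of the 15, against 8.30% of all windows. GAAANNGAA was found in 0 of the 15, against 8.56% of all windows, which says only that these letters are not in these windows. The overlapping windows of Casp4 share their matches, and so do a pair of the Il1rn windows, so the windows are not independent. By gene, GGGNNNTTC was held by 4 of the 10 members, beside 15.8% of all genes with a window. Il1a, Il1b, Il18bp, Casp1 and Nlrp3 hold none of the 3 motifs.

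Libraries of the RNase III set held 17754518 to 25714074 gene-assigned reads, and those of the knockout set 15687699 to 20945618. Finding 0 reads allows up to 3 reads, which is 0.117 to 0.191 CPM, the count scaled to library size, and this limit covers counting error only. Levels are CPM on library sizes scaled by TMM, set within each set of tables, so they are compared only within a set. Whether groups overlap is described for the genes named, and the share of all genes whose groups lie apart was not counted. No label ties replicates to different animals, so p-values measure the spread between libraries, which may be technical. Epithelial and endothelial markers were present in every library, with Sftpc at 2475 to 7337 CPM and Cdh5 at 688 to 1424 CPM. Tlr3 averaged 12.4 ± 3.35 CPM in knockout lung with D.f. and 134 ± 31.0 CPM in wild-type lung with D.f. (SD, n = 2 each). Mavs averaged 2.50 ± 0.219 CPM in knockout lung with D.f. and 33.3 ± 1.48 CPM in wild-type lung with D.f. (SD, n = 2 each). Both genes were thus low in the libraries labelled knockout, and their remaining reads may lie outside the deleted parts.

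**Figure D1:**
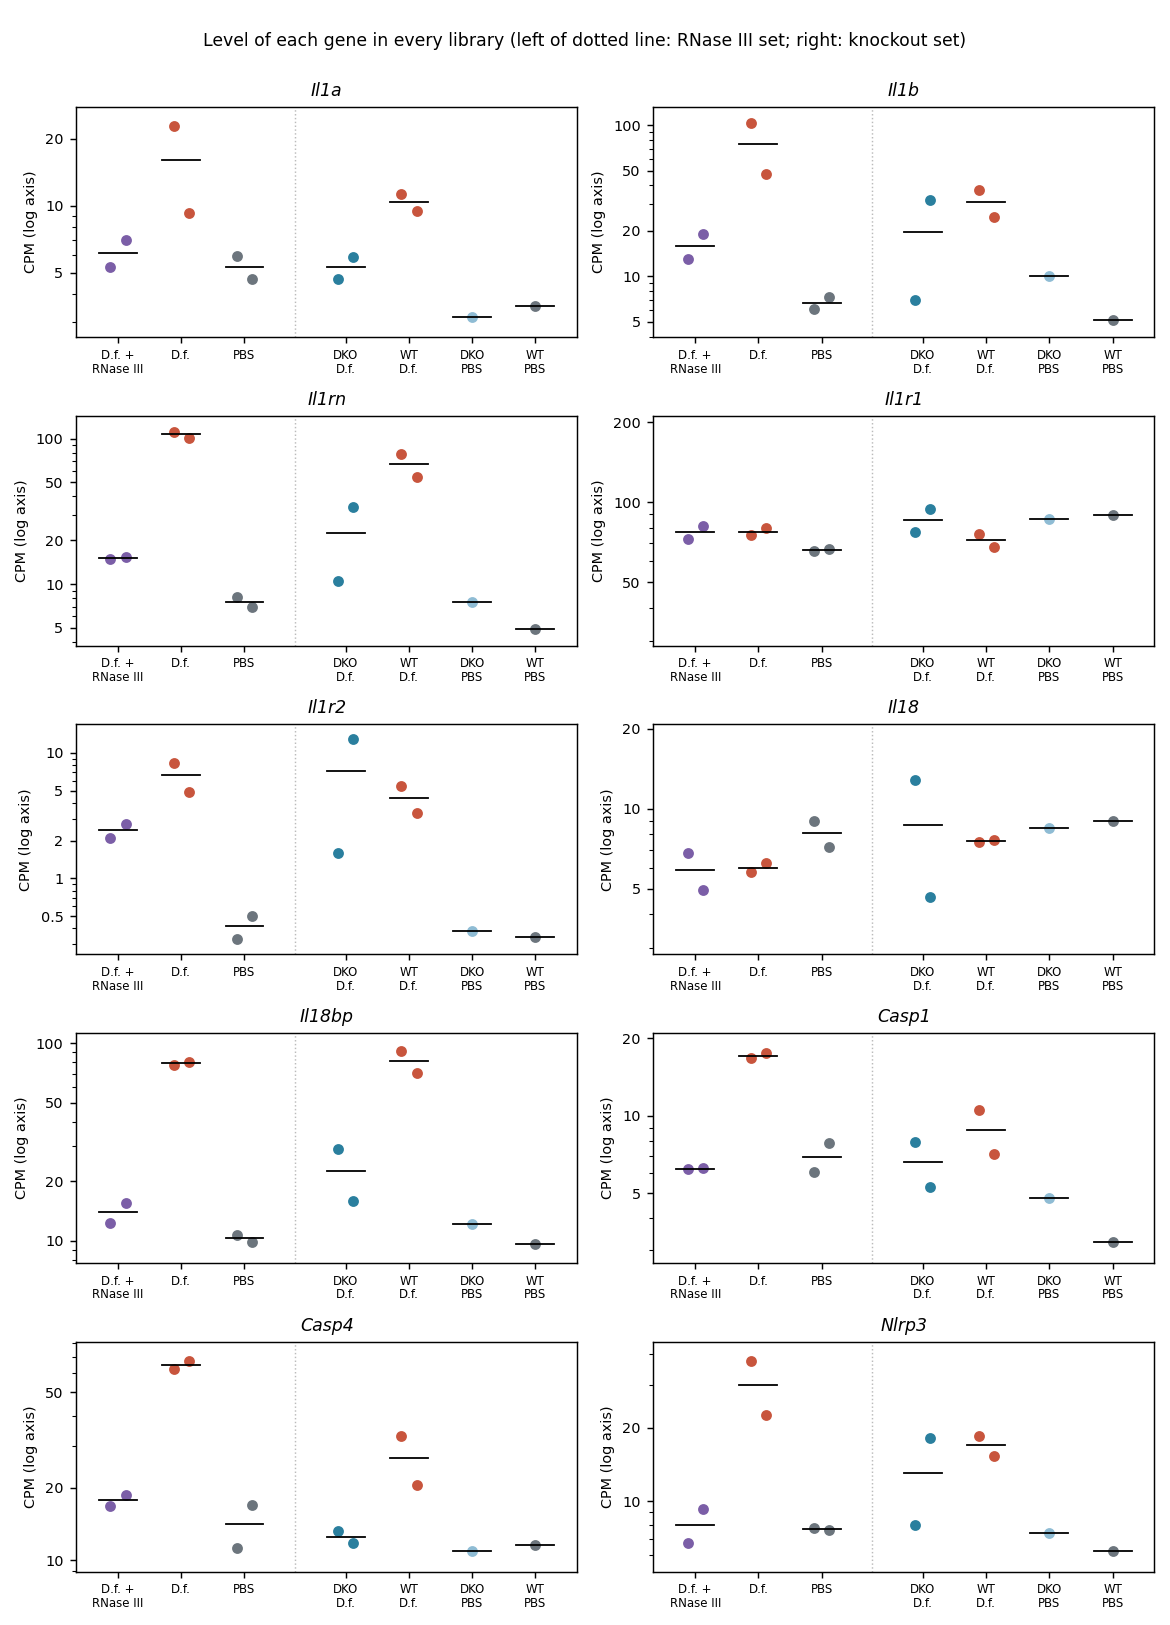
Level of each gene in every library in CPM on a log axis, with the RNase III set left of the dotted line and the knockout set right of it. Points are libraries and bars are group means. In the RNase III set, both D.f. libraries lie above both D.f. + RNase III libraries in 8 of 10 genes, the exceptions being Il1r1 and Il18. The share of all genes that lie apart in this way was not counted.

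With D.f. extract alone, 7 of the 10 genes were higher than with PBS in wild-type lung of the RNase III set: Il1b, Il1rn, Il1r2, Il18bp, Casp1, Casp4 and Nlrp3. Of all 17165 genes tested, 6.51% were called higher at an adjusted p below 0.05, where all p-values are from the quasi-likelihood test of edgeR, adjusted after Benjamini and Hochberg. None of the 10 was called lower, beside 4.50% of all genes. Their median log2 fold change was 2.08, beside -0.01 over all genes tested. The calls over all genes, 1890 in either direction, numbered 813 when D.f. replicate 3 was left out, 584 for D.f. replicate 4, 987 for RNase III replicate 5, 973 for RNase III replicate 6 and 3071 for PBS replicate 2. The number of members called was 7 under each such omission, but without D.f. replicate 4 Il1a took the place of Casp1 among them.

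Among the ligands, Il1b had 103 and 47.4 CPM in the D.f. libraries, against 6.08 and 7.33 CPM in the PBS libraries. The groups did not overlap, and the D.f. libraries differed from each other more than the PBS libraries did. Il1b was 11.2-fold higher with D.f. (log2 fold change 3.48 ± 0.39 SE, edgeR adjusted p = 0.00240). Il1a had 22.8 and 9.28 CPM in the D.f. libraries and 5.97 and 4.66 CPM in the PBS libraries. The groups were again apart, but Il1a missed the threshold, with a log2 fold change of 1.60 ± 0.42 SE and an adjusted p of 0.0516 in the same edgeR test. It passed the edgeR test without the filter on low counts (adjusted p = 0.0108), in a fit over 12 libraries (adjusted p = 0.0233) and without D.f. replicate 4 (adjusted p = 0.0192), and also passed in DESeq2 (adjusted p = 0.00217). Without D.f. replicate 3 its log2 fold change was 0.79, with an edgeR adjusted p of 0.240. Il18 had 5.75 and 6.23 CPM in the D.f. libraries and 8.95 and 7.20 CPM in the PBS libraries. It was the 1 gene of the 10 whose D.f. libraries both lay below its PBS libraries. The log2 fold change of Il18 was -0.43 (95% interval -0.99 to 0.14, edgeR adjusted p = 0.318).

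The genes that hold the ligands back were higher with D.f. in all libraries. Il1rn, the receptor antagonist, had 112 and 102 CPM in the D.f. libraries and 8.13 and 6.92 CPM in the PBS libraries. It was 14.2-fold higher with D.f. (log2 fold change 3.83 ± 0.15 SE, edgeR adjusted p = 9.6e-05), with closer replicates than Il1b. Il18bp, the inhibitor of interleukin 18, had 77.5 and 80.4 CPM in the D.f. libraries and 10.7 and 9.87 CPM in the PBS libraries. It was 7.67-fold higher with D.f. (log2 fold change 2.94 ± 0.16 SE, edgeR adjusted p = 0.000192).

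The receptors parted. The decoy Il1r2 had 8.37 and 4.88 CPM in the D.f. libraries and 0.332 and 0.498 CPM in the PBS libraries, where it had 6 and 11 reads. Its log2 fold change of 3.96 ± 0.43 SE was the highest of the 10 genes and corresponds to 15.6-fold (edgeR adjusted p = 0.00194). The signalling receptor Il1r1 had 75.1 and 79.7 CPM in the D.f. libraries and 65.3 and 66.5 CPM in the PBS libraries. Its libraries did not overlap, yet the difference was small, with a log2 fold change of 0.23 (95% interval -0.04 to 0.51, edgeR adjusted p = 0.268).

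The caspases and the sensor had smaller fold changes than Il1b, a difference that was not tested. Casp4 had 62.4 and 67.6 CPM in the D.f. libraries and 11.3 and 17.0 CPM in the PBS libraries, 4.59-fold higher with D.f. (log2 fold change 2.20 ± 0.20 SE, edgeR adjusted p = 0.00114). Nlrp3 had 37.5 and 22.5 CPM in the D.f. libraries and 7.74 and 7.65 CPM in the PBS libraries, 3.90-fold higher with D.f. (edgeR adjusted p = 0.00564). Casp1 had 16.8 and 17.6 CPM in the D.f. libraries and 6.08 and 7.83 CPM in the PBS libraries, 2.46-fold higher with D.f. (edgeR adjusted p = 0.00623). None of these 3 genes had overlapping groups. Casp1 lost its call when D.f. replicate 4 was left out (edgeR adjusted p = 0.0639), with a log2 fold change of 1.26 in place of 1.30.

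Markers of infiltrating cells moved in the same libraries. Of 14 neutrophil markers, 10 were tested and 3 were called higher with D.f., and their summed level was 258 to 408 CPM in the D.f. libraries and 50.4 to 181 CPM in the PBS libraries. The neutrophil markers Ly6g and Stfa2 were each at 0 reads in some libraries. Of 12 markers of monocytes and interstitial macrophages, 6 were called higher with D.f., and their summed level was 742 to 784 CPM in the D.f. libraries and 309 to 377 CPM in the PBS libraries. The 11 alveolar macrophage markers summed to 335 to 572 CPM in the D.f. libraries and 940 to 1048 CPM in the PBS libraries, with 3 called lower. The 8 NK and T cell markers summed to 89.3 to 97.5 CPM in the D.f. libraries and 36.7 to 49.1 CPM in the PBS libraries, with 5 called higher. The 6 alveolar type 1 markers summed to 1996 to 2571 CPM in the D.f. libraries and 2968 to 3389 CPM in the PBS libraries, with 1 called lower. The 3 club cell markers summed to 12581 to 15461 CPM in the D.f. libraries and 20929 to 26731 CPM in the PBS libraries, also with 1 called lower. The 8 fibroblast markers summed to 2808 to 3374 CPM with D.f. and 3199 to 3973 CPM with PBS, with 3 called lower. The 8 endothelial markers summed to 2335 to 2943 CPM with D.f. and 2835 to 3411 CPM with PBS, with 1 called lower. Both of these ranges overlapped. The cardiac muscle markers set the PBS libraries apart from each other, at 125 CPM in replicate 1 and 1249 CPM in replicate 2. In whole lung, more cells of a type and more RNA per cell cannot be told apart, and the part of these cell types in the values above was not tested.

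When the extract came with RNase III, 6 of the 10 genes were lower than with D.f. alone: Il1b, Il1rn, Il18bp, Casp1, Casp4 and Nlrp3. Over all 17165 genes, 4.85% were called lower, 2.41% higher and 7.26% in either direction. The median log2 fold change of the 10 was -1.66, beside -0.00 over all genes. Il1rn had 14.9 and 15.4 CPM with D.f. and RNase III, a log2 fold change of -2.82 ± 0.14 SE against D.f. alone (edgeR adjusted p = 0.000279). Il18bp had 12.3 and 15.6 CPM with D.f. and RNase III, a log2 fold change of -2.50 ± 0.15 SE (edgeR adjusted p = 0.000492). These inhibitors kept their calls whichever library was left out. Il1b had 12.9 and 19.0 CPM with D.f. and RNase III, with a log2 fold change of -2.24 ± 0.37 SE against D.f. alone (edgeR adjusted p = 0.0135).

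The caspases and the sensor were lower too. Casp4 had 16.9 and 18.7 CPM with D.f. and RNase III, a log2 fold change of -1.87 ± 0.20 SE against D.f. alone (edgeR adjusted p = 0.00262). Nlrp3 had 6.72 and 9.26 CPM with D.f. and RNase III, a log2 fold change of -1.91 ± 0.28 SE (edgeR adjusted p = 0.00827). Casp1 had 6.23 and 6.26 CPM with D.f. and RNase III, a log2 fold change of -1.46 ± 0.19 SE (edgeR adjusted p = 0.00564). In all 3 genes the libraries with RNase III lay below both libraries with D.f. alone.

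Some of these calls were lost when a library was left out. Over all genes, 1246 were called in either direction, with 537 when D.f. replicate 3 was left out, 359 for D.f. replicate 4, 146 for RNase III replicate 5, 238 for RNase III replicate 6 and 2874 for either PBS library. Without D.f. + RNase III replicate 5 or replicate 6, fewer of the 10 members were called than in the main fit. Il1b then had edgeR adjusted p-values of 0.152 and 0.0719, Casp1 of 0.0945 and 0.0762, and Nlrp3 of 0.110 and 0.0538, without replicate 5 and without replicate 6. Casp4 had an edgeR adjusted p of 0.0564 without replicate 5, and Casp1 one of 0.0597 without D.f. replicate 4. The log2 fold changes kept their direction. Without replicate 5 and without replicate 6 they were -1.99 and -2.54 for Il1b, -1.45 and -1.46 for Casp1 and -1.70 and -2.16 for Nlrp3. Casp4 had -1.80 without replicate 5, and Casp1 had -1.43 without D.f. replicate 4. The cardiac muscle markers summed to 175 to 196 CPM with D.f. and RNase III and 478 to 986 CPM with D.f. alone. The adipose markers summed to 9.90 to 11.6 CPM with D.f. and RNase III and 48.6 to 76.4 CPM with D.f. alone. None of the 8 cardiac or 6 adipose markers was called. Called lower were 7 of 8 NK and T cell markers and 5 of 12 of monocytes and interstitial macrophages, beside 4.85% of all genes. So were 2 of 4 B cell markers and 2 of the 10 neutrophil markers tested. Called higher were 2 of 11 alveolar macrophage, 1 of 6 alveolar type 1 and 1 of 8 fibroblast markers, beside 2.41% of all genes. The part of these cells in the values was not tested.

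Il1r2 and Il1a were lower in both RNase III libraries without passing the test. Il1r2 had 2.09 and 2.73 CPM with D.f. and RNase III, a log2 fold change of -1.46 ± 0.35 SE against D.f. alone (edgeR adjusted p = 0.0525). Il1a had 5.29 and 7.01 CPM with D.f. and RNase III, a log2 fold change of -1.39 ± 0.41 SE (edgeR adjusted p = 0.0964). The remaining genes overlapped between these groups. Il1r1 had 72.9 and 81.3 CPM with D.f. and RNase III, and its log2 fold change against D.f. alone had a 95% interval of -0.28 to 0.27. Il18 had 6.83 and 4.92 CPM with D.f. and RNase III, with a 95% interval of -0.60 to 0.54.

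Against PBS, the extract with RNase III left 0 of the 10 genes called, with 0.00583% of all genes called higher, which is 1 gene. At an unadjusted p below 0.05 there were 835 genes, and DESeq2 called 2 of the 10, Il1rn and Il1r2. This comparison shares its PBS libraries with that of D.f. alone against PBS and its RNase III libraries with the preceding one. Il1r2 had the highest log2 fold change against PBS, 2.50 ± 0.44 SE (edgeR adjusted p = 0.612), beside 3.96 for D.f. alone. Il1b had a log2 fold change of 1.25 ± 0.38 SE (edgeR adjusted p = 0.960), beside 3.48 for D.f. alone. Il1rn had 1.01 ± 0.14 SE (edgeR adjusted p = 0.287), beside 3.83 for D.f. alone. In these 3 genes both libraries with RNase III lay above both PBS libraries. They did so in Il18bp and Il1r1 too, while in Il18 both lay below. How many of all genes lie apart in this way was not counted. Casp1 had -0.16 ± 0.19 SE and Nlrp3 0.06 ± 0.28 SE, with libraries that overlapped those of PBS. The neutrophil markers summed to 100.0 to 136 CPM with D.f. and RNase III, inside the range of the PBS libraries, the monocyte and interstitial macrophage markers to 366 to 369 CPM and the NK and T cell markers to 35.0 to 36.3 CPM. The alveolar macrophage markers summed to 557 to 664 CPM with D.f. and RNase III and 940 to 1048 CPM with PBS. Without PBS replicate 1 there were 188 genes called, 1 of them a member, and without PBS replicate 2 there were 62. The part of these cells was not tested.

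**Figure D2:**
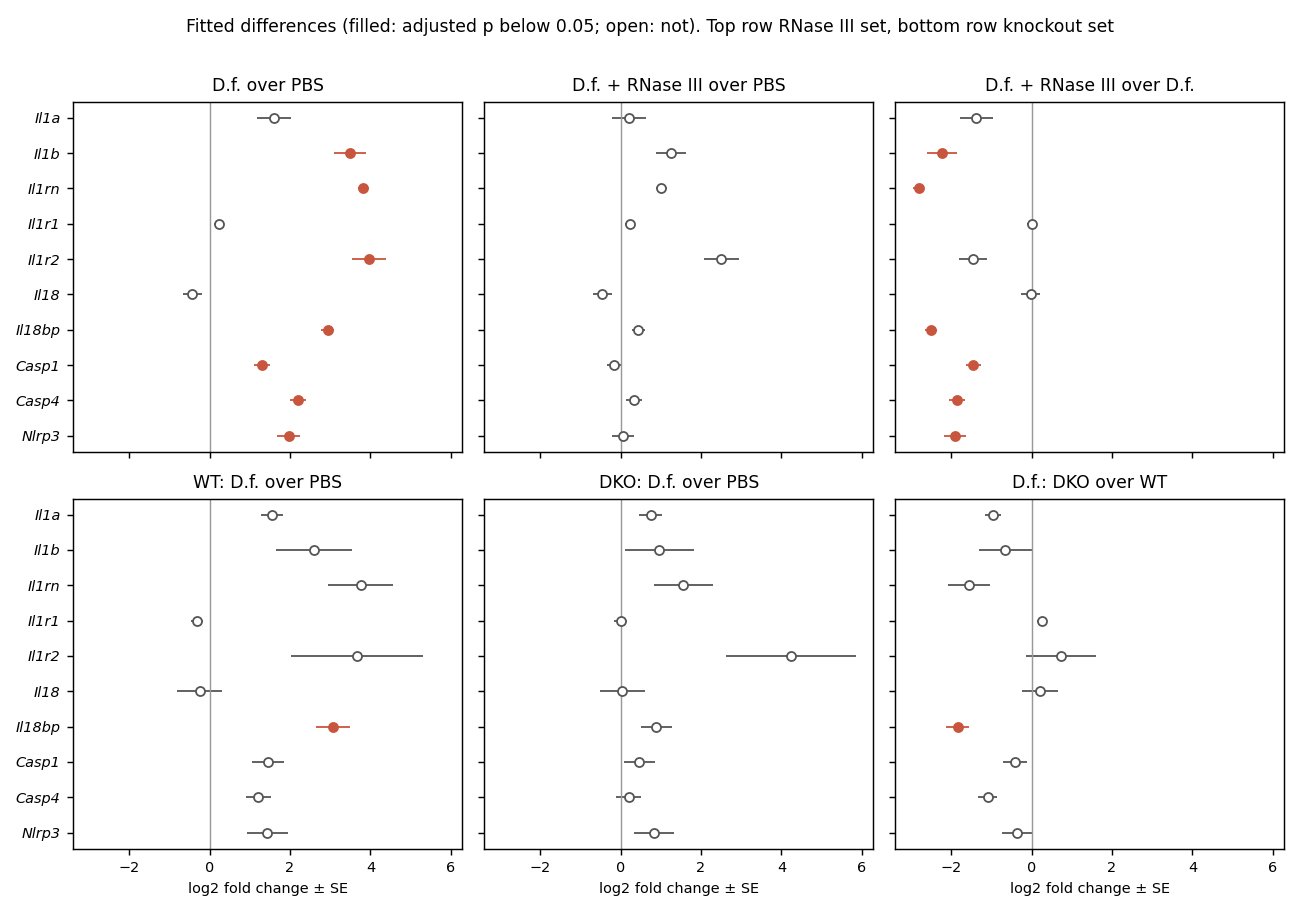
Log2 fold change of each gene with its SE in each comparison, from edgeR fits, with called genes in a colour of their own. Il1rn and Il18bp lie to the right of 0 for D.f. against PBS, at 3.83 and 2.94, and to the left of 0 where RNase III was added to the extract, at -2.82 and -2.50.

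In the knockout set, wild-type lung with D.f. had 1 of the 10 genes called higher than its PBS library, Il18bp, and 1.38% of all 15294 genes were called higher and 1.52% in either direction. The PBS group is a single library, for which the fit assumes the spread seen in the pairs. Il18bp had 91.4 and 70.2 CPM in wild-type lung with D.f. and 9.62 CPM in wild-type lung with PBS, a log2 fold change of 3.07 ± 0.42 SE (edgeR adjusted p = 0.0419). That call was lost without wild-type D.f. replicate 3 (edgeR adjusted p = 0.323) or replicate 4 (edgeR adjusted p = 0.181), with log2 fold changes of 2.83 and 3.22, which left 0 of the 10 and 0 of all genes called. Without a knockout D.f. library more genes were called, with the spread taken from the wild-type D.f. pair alone. Not all of these were higher: Il1r1 then had log2 fold changes of -0.32 (without replicate 5) and -0.35 (without replicate 6). Il1rn had 78.6 and 54.2 CPM in wild-type lung with D.f. and 4.90 CPM in wild-type lung with PBS, a log2 fold change of 3.76 ± 0.81 SE (edgeR adjusted p = 0.109). Il1b had 37.1 and 24.7 CPM in wild-type lung with D.f. and 5.12 CPM in wild-type lung with PBS, a log2 fold change of 2.59 ± 0.95 SE (edgeR adjusted p = 0.264). In 8 of the 10 genes both D.f. libraries lay above the PBS library, and in Il1r1 and Il18 both lay below it. The share of all genes that lie so was not counted. The SEs are larger than in the RNase III set for every member but Il1a, with 0.27 in the knockout set and 0.42 in the RNase III set.

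A joint fit of the 7 wild-type libraries with D.f. or PBS, with a term for the set, was also made. In it 8 of the 10 genes were called higher with D.f., all but Il1r1 and Il18, beside 8.53% of all 15481 genes called higher and 6.18% lower. All calls numbered 2277, with 1080 when D.f. replicate 3 of the RNase III set was left out, 1236 for its replicate 4 and 1249 for wild-type D.f. replicate 3 of the knockout set. Il1a, which missed the threshold within each set, had a log2 fold change of 1.56 ± 0.31 SE (edgeR adjusted p = 0.0143), and an edgeR adjusted p of 0.0507 without the wild-type PBS library of the knockout set. Within the sets its log2 fold change was 1.60 (RNase III set) and 1.55 (knockout set). Il1rn had 3.78 ± 0.16 SE (edgeR adjusted p = 2.14e-05), from 3.83 and 3.76 within the sets. Il1r1 had -0.02 (95% interval -0.30 to 0.27), from 0.23 (RNase III set) and -0.32 (knockout set). The sets also differ in the club cell gene Scgb1a1, at 1034 to 1717 CPM in the knockout set and 11844 to 24292 CPM in the RNase III set, and the part of this difference was not tested.

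Knockout lung with D.f. had 0 of the 10 genes called against its PBS library by edgeR, where 0% of all genes were called, 847 had an unadjusted p below 0.05 and DESeq2 called 37 genes and none of the 10. The log2 fold changes of the 10 ran from -0.01 for Il1r1 to 4.23 ± 1.62 SE for Il1r2, with edgeR adjusted p-values of 0.819 or more. Without knockout D.f. replicate 5, Il1a, Il1b, Il1rn, Il1r2 and Nlrp3 had log2 fold changes of 0.90, 1.67, 2.17, 5.05 and 1.30. Il18 had -0.86 in that fit, where the main fit gave 0.04. Without replicate 6, Il18bp had 1.25 and Il1b -0.52. In those fits, too, the spread comes from the wild-type D.f. pair.

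Set against wild-type lung with the same extract, knockout lung had 1 of the 10 genes called lower, Il18bp, beside 2.01% of all genes called lower and 2.53% in either direction. Il18bp had 29.0 and 16.0 CPM in knockout lung with D.f. and 91.4 and 70.2 CPM in wild-type lung with D.f., a log2 fold change of -1.85 ± 0.30 SE (edgeR adjusted p = 0.0484). The call was lost without wild-type D.f. replicate 3 (edgeR adjusted p = 0.403) or replicate 4 (edgeR adjusted p = 0.231), where its log2 fold change was -1.64 and -2.03, with 7 and 17 of all genes called in place of 387. Casp4 had 13.2 and 11.8 CPM in knockout lung with D.f. and 32.8 and 20.6 CPM in wild-type lung with D.f., a log2 fold change of -1.10 ± 0.24 SE (edgeR adjusted p = 0.0927). Il1a had 4.68 and 5.90 CPM in knockout lung with D.f. and 11.2 and 9.48 CPM in wild-type lung with D.f., a log2 fold change of -0.97 ± 0.20 SE (edgeR adjusted p = 0.0883). Il1rn had 10.5 and 34.0 CPM in knockout lung with D.f. and 78.6 and 54.2 CPM in wild-type lung with D.f., a log2 fold change of -1.57 ± 0.52 SE (edgeR adjusted p = 0.205). In these 4 genes both knockout libraries lay below both wild-type libraries. Il1r1 had 77.5 and 94.5 CPM in knockout lung with D.f. and 76.0 and 67.7 CPM in wild-type lung with D.f., so that both knockout libraries lay above both wild-type ones. In Il1b, Il1r2, Il18, Casp1 and Nlrp3 the libraries overlapped. How many of all genes have groups that lie apart was not counted.

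Markers of other cells differed between these groups. Of 12 markers of monocytes and interstitial macrophages, 3 were called lower and 1 higher in knockout lung, beside 2.01% and 0.517% of all genes. The NK and T cell markers summed to 20.5 to 34.1 CPM in knockout lung with D.f. and 49.8 to 49.995 CPM in wild-type lung with D.f., with 0 of 8 called. The alveolar macrophage markers summed to 642 to 741 CPM in knockout lung and 482 to 492 CPM in wild-type lung, with 2 of 10 tested called higher. The cardiac muscle markers summed to 84.4 to 158 CPM in knockout lung and 388 to 587 CPM in wild-type lung, with 2 of 7 tested called lower. The fibroblast markers summed to 3551 to 4288 CPM in knockout lung and 5090 to 5138 CPM in wild-type lung, with 1 of 8 called lower. Their part in the values of the members was not tested.

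The response to D.f. was tested for a difference between genotypes by an interaction term, which called 0 of the 10 genes and 0.00654% of all genes, or 1 gene, by edgeR, with 1481 genes at an unadjusted p below 0.05. DESeq2 called 1 of the 10, Il18bp. Il18bp had an interaction of -2.19 ± 0.55 SE on the log2 scale (edgeR adjusted p = 0.298). Il1rn had -2.20 ± 1.03 SE (edgeR adjusted p = 0.598). The term rests on 1 PBS library per genotype. Without knockout D.f. replicate 5 it called 5 of the 10 and 1666 genes, and without replicate 6 it called 4 and 1238.

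The 2 knockout libraries with D.f. differed from each other in many of these genes. Il1r2 had 1.60 CPM in replicate 5 and 12.8 CPM in replicate 6, 8.02-fold higher in replicate 6. Il1b had 7.02 and 32.2 CPM in replicates 5 and 6, 4.59-fold higher in replicate 6. Nlrp3 had 8.03 and 18.1 CPM, 2.26-fold higher in replicate 6. Il1rn was 3.23-fold higher in replicate 6 as well. Il18, Il18bp and Casp1 differed the other way, with Il18 at 12.8 CPM in replicate 5 and 4.65 CPM in replicate 6, 2.75-fold higher in replicate 5. Il18bp was 1.81-fold and Casp1 1.496-fold higher in replicate 5. The median absolute log2 gap of the pair was 0.98 over the 10 genes, 5 of which exceeded 1, and 0.19 over all 15294 genes, of which 3.25% exceeded 1. The wild-type pair with D.f. had a median gap of 0.46 over the 10 genes and 0.12 over all genes.

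The neutrophil markers summed to 101 CPM in knockout D.f. replicate 5 and 313 CPM in replicate 6, beside 89.8 to 152 CPM in wild-type lung with D.f., 132 CPM in knockout lung with PBS and 38.0 CPM in wild-type lung with PBS. Of the 13 listed markers present in these tables, Stfa2 was at 0 in all 6 libraries. The monocyte and interstitial macrophage markers summed to 383 to 518 CPM in knockout lung with D.f. and 495 to 546 CPM in wild-type lung with D.f. The part of these cells in the gap was not tested. Without replicate 5, Il1b differed by 0.05 and Nlrp3 by 0.09 on the log2 scale between knockout and wild-type lung with D.f., and without replicate 6 by -2.14 and -1.08. Il1r2 differed by 1.53 without replicate 5 and by -1.46 without replicate 6. Il1rn was lower either way, at -0.97 without replicate 5 and -2.66 without replicate 6. Il18 differed by -0.70 without replicate 5 and by 0.76 without replicate 6, so Il1r2 and Il18 changed sign between the omissions. Either omission left a single knockout D.f. library, with the spread again taken from the wild-type D.f. pair alone.

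**Figure D3:**
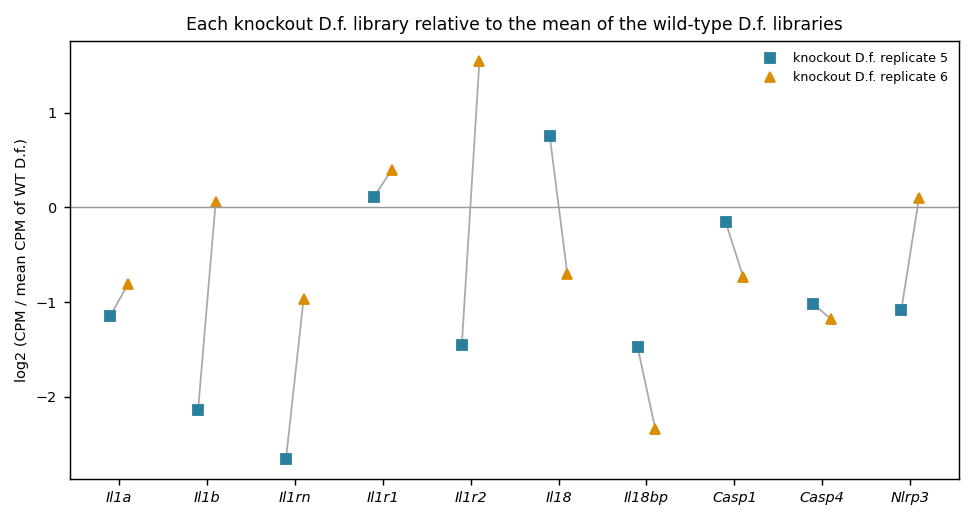
Log2 ratio of each knockout library with D.f. to the mean of the wild-type libraries with D.f., with a line joining the pair. Il1r2 spans -1.45 in replicate 5 to 1.55 in replicate 6 and Il1b -2.14 to 0.06, while Casp4 lies at -1.02 and -1.18.

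With PBS the genotypes have 1 library each and no test. Il1b had 10.1 CPM in the knockout library and 5.12 CPM in the wild-type library. Il1rn had 7.57 CPM in the knockout library and 4.90 CPM in the wild-type library. Over the 10 genes the knockout library was higher in 6 and lower in 4, and the share of all genes on either side was not counted. The NK and T cell markers summed to 53.8 CPM in the knockout library and 22.0 CPM in the wild-type library. The cardiac muscle markers summed to 98.1 and 710 CPM in the same order, and the part of these cells was not tested.

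Ratios of counts within a library do not depend on scaling. They were described per library and not tested, since 2 against 2 libraries cannot pass an exact permutation test. The log2 ratio of Il18 to its inhibitor Il18bp was -0.84 and -1.66 with D.f. and RNase III, -3.75 and -3.68 with D.f. alone and -0.26 and -0.45 with PBS. In the knockout set it was -1.18 and -1.78 in knockout lung with D.f. and -3.60 and -3.20 in wild-type lung with D.f., with -0.52 in knockout lung and -0.10 in wild-type lung with PBS. The untreated extract in wild-type lung thus gave the 4 lowest ratios, and no other library fell below -1.78.

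The log2 ratio of Il1b to the antagonist Il1rn separated the groups less. It was -0.20 and 0.31 with D.f. and RNase III, -0.12 and -1.10 with D.f. alone and -0.42 and 0.08 with PBS. These ranges overlapped. In the knockout set it was -0.58 and -0.08 in knockout lung with D.f., below -1 in both wild-type libraries with D.f. (-1.08 and -1.13), 0.41 in knockout lung with PBS and 0.07 in wild-type lung with PBS. The log2 ratio of Il1a to Il1rn was -1.49 and -1.13 with D.f. and RNase III, -2.29 and -3.45 with D.f. alone and -0.44 and -0.57 with PBS. In the knockout set with D.f. it was -1.17 and -2.52 in knockout lung and -2.80 and -2.51 in wild-type lung, which overlapped. With PBS it was -1.25 in knockout lung and -0.47 in wild-type lung. The log2 ratio of the signalling to the decoy receptor, Il1r1 to Il1r2, was 5.10 and 4.88 with D.f. and RNase III, 3.16 and 4.02 with D.f. alone and 7.51 and 6.998 with PBS. Those 3 groups did not overlap, and the group with RNase III lay between the others. In the knockout set with D.f., Il1r1 to Il1r2 was 5.58 and 2.88 in knockout lung. These values lay on either side of the 3.80 and 4.35 of wild-type lung. With PBS it was 7.72 in knockout lung and 7.92 in wild-type lung.

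**Figure D4:**
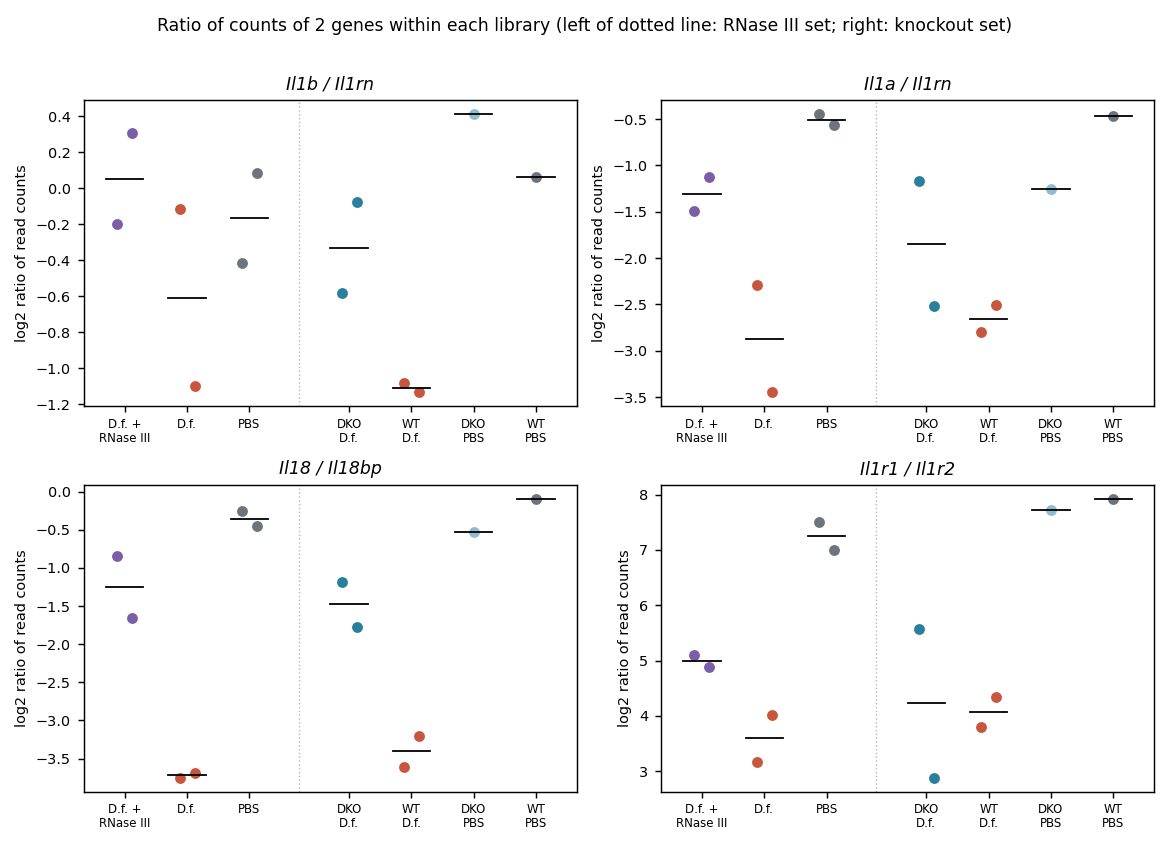
Log2 ratio of counts within each library for the 4 pairs of agonist and inhibitor or of signalling and decoy receptor, by group. For Il18 to Il18bp, the wild-type libraries with D.f. alone lie between -3.75 and -3.20 and every other library lies at -1.78 or above.

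Levels per kilobase of exon order the genes within a group. In wild-type lung with D.f. of the RNase III set, Il18bp was highest at 56.4 ± 1.45 CPM per kilobase (SD, n = 2), followed by Il1b at 39.5 ± 20.7 and Il1rn at 33.3, which overlapped. Il1r2 was lowest at 4.95 CPM per kilobase. With PBS, Il1r1 was highest at 13.04 CPM per kilobase and Il18 next at 11.5 ± 1.77, and Il1r2 was again lowest at 0.310. The genes that led with PBS, Il1r1 and Il18, were not called with D.f. With the longest transcript as length, Casp4 with D.f. had 34.2 CPM per kilobase in place of 17.5. Il1b with D.f. then had 76.0 and 34.9 CPM per kilobase and Il18bp 55.4 and 57.4, so the libraries of these genes overlapped and Il18bp was not apart from Il1b.

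The genes most like each member were taken by Pearson's r over 12 libraries, on log2 CPM centred within each set, among 13655 genes. Libraries of a group share their treatment, so these values are a description. Il1rn was most like Irg1 (r = 0.995), which makes itaconate, and Il18bp was most like Tmem106a (r = 0.995) and Tapbp (r = 0.994), which helps load MHC class I. Il1b was most like the costimulatory gene Cd80 (r = 0.980) and Clec4d (r = 0.975), the second of which is on the neutrophil list. Il1r2 was most like Sod2 (r = 0.981), Il1a like Cxcl2 (r = 0.964) and Nlrp3 like Osm (r = 0.982). Casp1 was most like the transcription factor Irf1 (r = 0.972) and Casp4 like Ccdc86 (r = 0.988). Among the members, Il1b, Il1rn and Nlrp3 were most alike, with r = 0.957 for Il1b and Nlrp3 and 0.951 for Il1rn and Il1b. Il18bp was closest to Casp4 (r = 0.935) and Casp1 to Il18bp (r = 0.928). The member closest to Il18 was Casp1 (r = -0.077), and the one closest to Il1r1 was Il1r2 (r = 0.284).

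Other genes of the pathway were counted from a list of 44, of which 36 could be tested with the RNase III libraries and 37 with those of the knockout set. With D.f. alone against PBS, 15 were called higher and 1 lower, beside 6.51% and 4.50% of all genes, with a median log2 fold change of 0.66. Mefv, which encodes the inflammasome sensor pyrin, averaged 28.5 ± 5.39 CPM with D.f. and 1.96 ± 0.593 CPM with PBS (SD, n = 2 each), a log2 fold change of 3.87 ± 0.28 SE (edgeR adjusted p = 0.000456). Myd88, the adaptor of the interleukin 1 receptors, averaged 108 ± 10.8 CPM with D.f. and 37.5 ± 2.74 CPM with PBS (edgeR adjusted p = 0.000834). Pycard, the adaptor that links sensors to Casp1, averaged 17.1 ± 1.096 CPM with D.f. and 7.79 ± 0.323 CPM with PBS (edgeR adjusted p = 0.00642). Gsdmd, the pore-forming substrate of the inflammatory caspases, had a log2 fold change of 1.00 ± 0.16 SE (edgeR adjusted p = 0.00865) and the DNA sensor Aim2 one of 1.14 ± 0.26 SE (edgeR adjusted p = 0.0354). The 2 chains of the interleukin 18 receptor parted: Il18rap had 1.43 ± 0.21 SE (edgeR adjusted p = 0.00683), while Il18r1 had 0.01 ± 0.15 SE (edgeR adjusted p = 0.964) at 178 to 185 CPM in the D.f. libraries and 158 to 201 CPM in the PBS libraries. Il1rap, the accessory chain of Il1r1, had 0.45 ± 0.12 SE (edgeR adjusted p = 0.0510). The gene called lower was Il1rl1, the receptor of interleukin 33, with -1.19 ± 0.24 SE (edgeR adjusted p = 0.0213). Naip2, also called higher, belongs to a family of near-identical copies, so its counts are uncertain.

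With RNase III against D.f. alone, 10 of the 36 were called lower and 0 higher, beside 4.85% and 2.41% of all genes. Myd88 had a log2 fold change of -1.32 ± 0.13 SE (edgeR adjusted p = 0.00197), Mefv one of -2.43 ± 0.25 SE (edgeR adjusted p = 0.00237) and Pycard one of -1.37 ± 0.17 SE (edgeR adjusted p = 0.00428). Against PBS, 0 of the 36 were called with RNase III by edgeR and 1 by DESeq2. The count of 10 became 0 when RNase III replicate 5 was left out, 2 for replicate 6, 5 for D.f. replicate 3, 3 for D.f. replicate 4 and 16 for either PBS library. The count of 16 for D.f. against PBS became 8 for D.f. replicate 3, 5 for D.f. replicate 4 and 9 for either library with RNase III.

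In the knockout set, wild-type lung with D.f. had 2 of the 37 called higher, beside 1.38% of all genes, Pycard (log2 fold change 1.62 ± 0.22 SE) and Naip2 (1.19 ± 0.16 SE), each with an edgeR adjusted p of 0.0407. Knockout lung with D.f. had 0 called against its PBS library. Between the genotypes with D.f., Il1rl1 was the 1 gene called, where 0.517% of all genes were called higher, at 9.77 ± 1.45 CPM in knockout lung and 2.83 ± 0.527 CPM in wild-type lung (SD, n = 2 each), a log2 fold change of 1.78 ± 0.22 SE (edgeR adjusted p = 0.0271). Each of these calls was lost without wild-type D.f. replicate 3 or without replicate 4, which left 0 of the 37 called.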

How the data were processed

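Whole-lung RNA of 12 libraries was analysed. Per the series' design text and the submitters' processing notes, reads were trimmed, mapped to mm9 with TopHat2 2.0.8b and counted per gene with HTSeq. Which HTSeq release, gene annotation and strand option were used is not stated in the labels. The authors deposited raw counts, 1 table per library, in which multiply aligned reads are only totalled. Lines for unassigned reads were left out of library sizes, and 23.1% to 28.2% of the reads in each table were assigned to genes.

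Groups came from the sample titles. Each set of 6 libraries was fitted in R 4.3.3 with edgeR 4.0.16 (TMM, filterByExpr, glmQLFit and glmQLFTest, a mean per group), with p-values adjusted by Benjamini-Hochberg over all genes tested and called below 0.05. Residual degrees of freedom were 3 (RNase III set) and 2 (knockout set). DESeq2 1.42.0, RLE scaling, no filter, a fit over all libraries and leaving out each library were the alternatives. The steps were tested on simulated data. Ratios added 0.5 to each count, and likeness used log2(CPM + 1). Coordinates and lengths came from GENCODE on NCBIM37 and promoter windows from RefSeq on GRCm38.p6. Protein sequences were not used here. The 10 members, the marker lists and the pathway list were chosen with earlier results of these data known. The text names all members, Tlr3 and Mavs, pathway genes among the 4 of smallest p in a comparison with a few receptors, adaptors and sensors besides, and up to 3 genes most like each member.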

Additional observations from a re-analysis of the deposited data

Results flagged for a closer look

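Il1r1 lay on opposite sides of its PBS level with D.f. in the wild-type lungs of the 2 sets. The log2 ratio of each D.f. library to the mean of its PBS libraries was 0.19 and 0.27 in the RNase III set, and -0.24 and -0.41 against the single PBS library of the knockout set. All libraries of one set lay on one side of 0 and all libraries of the other set on the other side. Neither change passed the edgeR test in the fit of all libraries of its set. The log2 fold change was 0.23 (95% interval -0.04 to 0.51, edgeR adjusted p = 0.268) in the RNase III set and -0.32 (95% interval -0.71 to 0.07, edgeR adjusted p = 0.371) in the knockout set. Without knockout D.f. replicate 5 or 6 the test outcome differed in the knockout set, at log2 fold changes of -0.32 and -0.35. The spread then came from the wild-type D.f. pair alone. Scgb1a1, the club cell gene, was also apart, at 1034 to 1717 CPM in the knockout set and 11844 to 24292 CPM in the RNase III set, and its part was not tested. The difference was not tested, and the tables of the sets were normalized separately.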

How the results depend on the processing

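No paired analysis was possible because the groups compared share no replicate numbers. RLE scaling moved none of the counts of calls by over 1.5 times. DESeq2 gave other counts of members: 8 for D.f. against PBS among the RNase III libraries, 2 for D.f. with RNase III against PBS, 5 for wild-type D.f. against PBS in the knockout set, 2 between genotypes with D.f. and 1 for the interaction. Over all genes DESeq2 called 47 for D.f. with RNase III against PBS, 1912 against D.f., 642 for wild-type D.f. against PBS in the knockout set, 37 in the knockout, 729 for knockout against wild type and 213 for the interaction, and of the pathway list 1, 16, 6, 1 and 3 in the first 5 of these comparisons. Without the filter the counts were 10 genes for D.f. with RNase III against PBS, 16 pathway genes against D.f., 2 members and 391 genes for wild-type D.f. in the knockout set, and 16 genes for the interaction. The fit over 12 libraries gave 2 members, 391 genes and 4 pathway genes for wild-type D.f. in the knockout set, 2 members and 2 pathway genes for knockout against wild type, and 7 genes for the interaction. The knockout set alone gave 1 member, 232 genes and 2 pathway genes in place of the pooled wild-type counts. Il1r1 changed sign to 0.0015 in knockout lung against PBS in the fit over 12 libraries, and to 0.23 with the RNase III set alone in place of the pooled fit. The cause of these shifts was not tested.

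Leaving out 1 library at a time, members called ranged from 7 to 7 for D.f. against PBS among the RNase III libraries, 0 to 1 for D.f. with RNase III against PBS, 2 to 8 against D.f., 0 to 9 for wild-type and 0 to 6 for knockout D.f. against PBS, 0 to 8 between genotypes, 0 to 5 for the interaction and 7 to 8 pooled. In the same order, all genes called ranged from 584 to 3071, 0 to 188, 146 to 2874, 0 to 3150, 0 to 2092, 7 to 3048, 0 to 1666 and 1080 to 2428, and pathway genes from 5 to 20, 0 to 1, 0 to 16, 0 to 17, 0 to 8, 0 to 10, 0 to 10 and 12 to 20. Of the members' single results, 368 kept direction and side of the threshold under these omissions, 50 gained a call and 14 lost one with the same direction, and 18 changed sign from a value that was not called. On the log2 scale, against PBS with RNase III, Il1a ranged from -0.0076 to 0.40, Casp1 from -0.32 to 0.039 and Nlrp3 from -0.20 to 0.27, and against D.f. with RNase III, Il1r1 from -0.082 to 0.072 and Il18 from -0.28 to 0.19. In knockout lung against PBS, Il1b ranged from -0.52 to 1.67, Il1r1 from -0.16 to 0.13 and Il18 from -0.86 to 0.59. Between genotypes with D.f., Il1b ranged from -2.14 to 0.054, Il1r2 from -1.46 to 1.53, Il18 from -0.70 to 0.76 and Nlrp3 from -1.08 to 0.094. For the interaction, Il1r2 ranged from -1.58 to 1.39 and Il18 from -0.61 to 0.87. Pooled, Il1r1 ranged from -0.081 to 0.20.

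With the longest transcript as length, the levels below moved by more than the spread of libraries, or than counting error in a single library. Il1b with D.f. alone did not, at 55.5 in place of 39.5 ± 20.7 CPM per kilobase (SD, n = 2). In the other groups, in CPM per kilobase, Il1b became 11.8 with D.f. and RNase III and 4.95 with PBS. In the knockout set it became 22.8 in wild-type lung with D.f., 7.44 in knockout lung with PBS and 3.78 in wild-type lung with PBS. Il1rn in the same order became 6.11, 3.04, 26.8, 3.06 and 1.98, and 43.1 with D.f. alone. Casp4 in that order became 9.35, 7.43, 14.1, 5.74 and 6.11, with 34.2 for D.f. alone and 6.57 in knockout lung with D.f. Il1r1 became 16.0 with D.f. alone and 13.6 with PBS, and Nlrp3 1.91 with PBS. Without centring by set, 1 of the 3 genes most alike was shared for Il1b, Il1rn, Il1r1, Il18 and Casp1, and 0 for Casp4. Depth limits Il1r2 most, with 6 to 11 reads in the PBS libraries.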
